A study of Mus musculus with 8 samples.

Results

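Cyclic AMP and cyclic GMP are made by cyclases and cut by phosphodiesterases, and the 36 mouse genes whose symbols name an adenylyl cyclase (Adcy) or a phosphodiesterase (Pde) are described here in sorted touch neurons. They were taken by symbol alone from the 55573 genes counted, with no use of their levels. The set held 9 membrane adenylyl cyclases and the soluble cyclase Adcy10, 8 phosphodiesterases that cut both cAMP and cGMP, 8 that are specific for cAMP and 5 that are specific for cGMP. The remaining 5 genes carry a Pde symbol but their products do not cut cyclic nucleotides. These are the prenyl-binding carrier Pde6d, the inhibitory photoreceptor subunits Pde6g and Pde6h, the 2′-phosphodiesterase Pde12 and the scaffold Pde4dip, also called myomegalin.

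Membrane adenylyl cyclases turn ATP into cAMP when Gs-coupled receptors are active, and single isoforms are further tuned by calcium, by Gi or by the beta-gamma subunits of G proteins. Phosphodiesterases end the signal, and the isoforms differ in substrate and in their response to calcium and to cGMP. In sensory neurons of the dorsal root ganglion, cAMP acts mainly through protein kinase A and Epac proteins and is known for its part in sensitising neurons to painful stimuli.

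RNA was measured in C low-threshold mechanoreceptors (C-LTMRs), unmyelinated touch neurons of the dorsal root ganglion, sorted for GFP from adult mice. The 4 groups were male mice lacking Bhlha9 (male KO), male wild types (male WT), female KO and female WT, with 2 biological replicate libraries each. Bhlha9 encodes a transcription factor of the basic helix-loop-helix class, and the construction of the KO allele, the driver of GFP and the pooling of animals are not given in the sources used here. Libraries are numbered within a group, and the question put to them is which cyclic nucleotide enzymes C-LTMRs express and whether their transcripts differ between KO and WT.

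The libraries held between 50919885 and 71956309 counts, so that 3 counts stood for 0.0417 to 0.0589 CPM (counts scaled to library size, with edgeR's TMM factors). Bhlha9 stood at levels of 0.156 to 0.470 CPM in the 4 KO libraries and of 127 to 161 CPM in the 4 WT libraries. Th, the tyrosine hydroxylase that marks C-LTMRs, stood at 2976 to 5359 CPM, and all 9 C-LTMR markers were detected in all 8 libraries. Markers of other cells were present too, and are given beside the male comparison. In bulk libraries such as these, fewer cells of a type and less RNA per cell cannot be told apart. Floors cover counting error only, since the amplified cDNA carried no molecular identifiers.

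By mean level, transcripts of most membrane cyclases and of part of the phosphodiesterases were present in the sorted C-LTMR libraries. Of the 36 genes, 18 had a mean level of at least 1 TPM (transcript share per library, corrected for gene length) in the 4 WT libraries, where 30.28% of all genes counted reached that level. They were 7 of the 9 membrane cyclases, 4 of the 8 dual-specificity enzymes, 4 of the 8 cAMP-specific enzymes and 3 of the 5 genes without cyclic nucleotide catalysis. No cGMP-specific phosphodiesterase reached it. Of the cyclases, Adcy1, Adcy5, Adcy6 and Adcy9 also reached 1 TPM in each WT library. Adcy8 and Adcy2 did not, with lowest WT values of 0.42 and 0.21 TPM. Adcy3 reached it only in female WT replicate 2, at 3.71 TPM. Pde6d had by far the highest level, 204 ± 11.1 TPM (SD, n = 4 WT libraries), followed by Pde4dip at 19.5 ± 3.36 TPM. The catalytic genes with the highest levels were Pde2a at 18.7 ± 4.42 TPM, Pde1b at 17.96 ± 4.67 TPM, Pde1c at 14.5 ± 2.41 TPM, Adcy1 at 12.2 ± 1.64 TPM and Adcy5 at 11.9 ± 3.35 TPM. Among these 18 genes, neighbours in the order of mean levels had overlapping WT ranges except for Pde6d over Pde4dip and Pde4a over Pde4d. Over all 153 pairs of the 18 genes, 101 had separate WT ranges, so genes far apart in the order differed while most neighbours did not differ beyond their spread. The order depends on the length correction. In CPM, Pde1c led the catalytic genes at 129 CPM, before Adcy1 at 67.75, Pde2a at 50.7 and Pde1b at 42.9 CPM (means of 4 WT libraries). Pde6d at 198 ± 19.1 CPM then stood closer to Pde4dip at 146 ± 26.1 CPM (SD, n = 4 WT libraries).

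**Figure D1:**
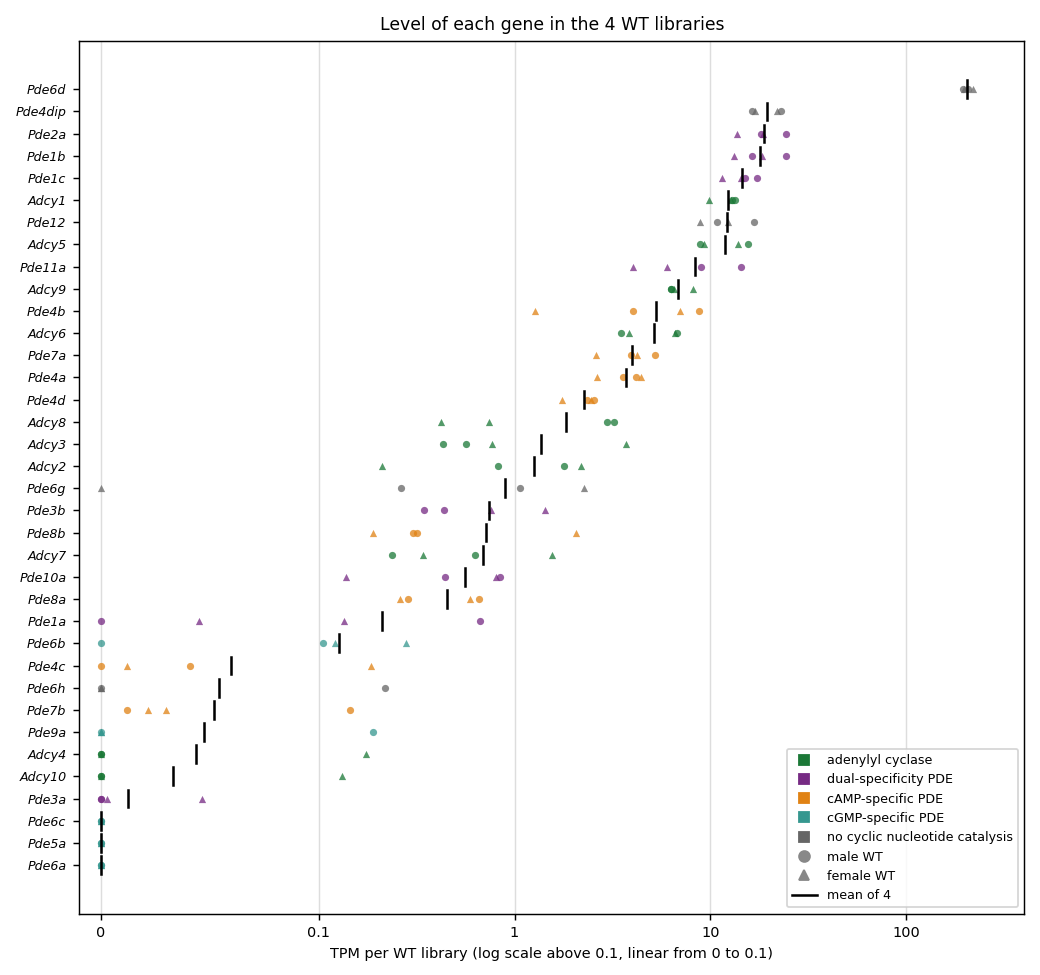
Level in TPM (horizontal, log scale above 0.1 and linear below) of each of the 36 genes in the 4 WT libraries, with circles for males, triangles for females, bars for the mean of 4 and colours for the enzyme class. Pde6d stands alone at 204 TPM, 18 genes reach a mean of 1 TPM, and the cGMP-specific enzymes lie at the bottom.

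How closely the 8 libraries agreed depended on the level. For the 15 genes with a mean of at least 5 CPM, the coefficient of variation over the 8 libraries ran between 11.1% and 45.2%, with a median of 21.4%. For the 8 genes between 1 and 5 CPM it ran between 39.3% and 121.5%, with a median of 87.9%. The other 13 genes had means below 1 CPM. In 8 of the 36 genes, 1 replicate of a group had 0 counts while its pair had 20 or more, so a low gene could be present in 1 replicate and missing from its pair.

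Among the cyclases, Adcy1, which calcium and calmodulin stimulate, and Adcy5, which calcium and Gi inhibit, had the highest levels. Adcy5 stood at 29.0 and 45.4 CPM in male KO, against 27.1 and 46.4 CPM in male WT. In females it stood at 37.5 and 41.5 CPM in KO and at 31.7 and 46.2 CPM in WT. The KO values of Adcy5 thus lay within or overlapped the WT range in each sex. Adcy9, a widely expressed isoform known for its weak response to forskolin, had a WT level of 6.83 ± 0.91 TPM (SD, n = 4). Adcy9 stood at 32.9 and 6.74 CPM in male KO, at 13.9 and 13.6 CPM in male WT, at 19.3 and 15.2 CPM in female KO and at 16.2 and 19.8 CPM in female WT. The male KO replicates of Adcy9 lay on either side of all other libraries. Adcy6, the close relative of Adcy5 with the same regulation, had a WT level of 5.17 ± 1.73 TPM (SD, n = 4). Adcy6 stood at 22.7 and 8.03 CPM in male KO, at 10.1 and 18.8 CPM in male WT, at 20.4 and 7.49 CPM in female KO and at 12.4 and 20.9 CPM in female WT. Its KO and WT values overlapped in each sex. Unstranded counting also puts reads of an overlapping antisense gene into Adcy6, over 8.92% of its exonic bases.

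The lower cyclases were Adcy8, also stimulated by calcium, at 1.83 ± 1.45 TPM, Adcy3, the cyclase of olfactory and neuronal cilia, at 1.37 ± 1.57 TPM, and Adcy2, stimulated by G protein beta-gamma, at 1.26 ± 0.90 TPM (SD, n = 4 WT libraries each). Their libraries are described with the comparisons, and unstranded reads of Cenpo can reach Adcy3 over 22.1% of its exonic bases. Adcy7, another beta-gamma-stimulated isoform, stood at 0 and 1.74 CPM in male KO, at 0.682 and 1.75 CPM in male WT, at 0.372 and 0.0141 CPM in female KO and at 1.09 and 4.90 CPM in female WT. Both female KO libraries lay below both female WT libraries, with a single count in female KO replicate 2, so no fold is given. Adcy4 had counts in 1 library, at 0.380 CPM, and the soluble cyclase Adcy10 in 2, at most 0.539 CPM.

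The dual-specificity phosphodiesterases were led by Pde2a, which cGMP stimulates, and by the calcium- and calmodulin-stimulated Pde1b and Pde1c. Pde2a stood at 43.2 and 81.7 CPM in male KO, at 47.4 and 62.0 CPM in male WT, at 51.2 and 51.6 CPM in female KO and at 54.3 and 39 CPM in female WT. Its KO and WT libraries overlapped in each sex. The annotated gene Gm45837 shares 64.3% of the exonic bases of Pde2a on the same strand and stood at 39.2 to 81.8 CPM, so reads of the 2 genes could not be separated. Pde1b stood at 23.7 and 38.4 CPM in male KO, at 55.5 and 36.3 CPM in male WT, at 27.3 and 57.8 CPM in female KO and at 47.0 and 33.0 CPM in female WT, again with overlap in each sex. Pde11a, another enzyme of both substrates, had a WT level of 8.32 ± 4.47 TPM (SD, n = 4). Of the rest, Pde10a, known from the striatum, ranged between 0.141 and 6.95 CPM over the 8 libraries, and Pde1a between 0 and 1.70 CPM. Pde3a had counts in 2 libraries, both female WT, at most 0.282 CPM. Pde3b, whose cAMP hydrolysis cGMP inhibits, was low in WT at 0.74 ± 0.49 TPM (SD, n = 4) and is taken up with the male comparison.

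Among the cAMP-specific enzymes, the rolipram-sensitive Pde4b, Pde4a and Pde4d and the high-affinity Pde7a reached 1 TPM. Pde4b stood at 22.4 and 25.3 CPM in male KO, at 39.4 and 17.5 CPM in male WT, at 19.5 and 39.01 CPM in female KO and at 6.41 and 34.5 CPM in female WT. It had the widest spread of the genes above 5 CPM and overlapped in each sex. Pde4a stood at 15.3 and 14.9 CPM in male KO, at 13.5 and 11.3 CPM in male WT, at 9.16 and 16.3 CPM in female KO and at 9.62 and 15.7 CPM in female WT. Pde4d stood at 18.8 and 10.6 CPM in male KO, at 12.9 and 11.6 CPM in male WT, at 14.96 and 13.95 CPM in female KO and at 9.99 and 13.7 CPM in female WT. Pde4a was higher in KO without overlap in males and Pde4d in females. Pde8b, a high-affinity cAMP enzyme, stood at 1.25 and 2.76 CPM in male KO, at 0.761 and 0.770 CPM in male WT, at 3.02 and 0.365 CPM in female KO and at 0.529 and 5.64 CPM in female WT. Its male libraries did not overlap and its female libraries did, and an antisense gene covers 7.60% of its exonic bases. Pde8a ranged between 0.491 and 1.70 CPM, Pde7b between 0 and 3.28 CPM and Pde4c between 0 and 2.02 CPM over the 8 libraries.

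The enzymes that cut cGMP alone were near the limit of detection. Summed over Pde5a, the target of sildenafil, Pde9a and the photoreceptor subunits Pde6a, Pde6b and Pde6c, the level was 0.229 ± 0.297 TPM in the 4 KO libraries and 0.174 ± 0.0793 TPM in the 4 WT libraries (SD, n = 4 each). Pde6b reached at most 1.41 CPM, and Pde6c had 0 counts in all 8 libraries, which allows at most 0.0417 to 0.0589 CPM per library. Pde5a had counts in 1 library, male KO replicate 2, at 0.694 CPM.

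The genes without cyclic nucleotide catalysis included the highest and the steadiest member. Pde6d, which carries prenylated proteins to membranes and cilia, stood at 157 and 166 CPM in male KO, at 180.5 and 185 CPM in male WT, at 196 and 184 CPM in female KO and at 204 and 222 CPM in female WT. In each sex both KO libraries lay below both WT libraries, and its coefficient of variation over the 8 libraries was 11.1%. Pde4dip, a scaffold of the Golgi and centrosome, stood at 141 and 155 CPM in male KO, at 117 and 160.4 CPM in male WT, at 177 and 199.5 CPM in female KO and at 175 and 133 CPM in female WT. It overlapped in males and was higher without overlap in female KO. Pde12, a mitochondrial enzyme that trims RNA, stood at 54.2 and 35.2 CPM in male KO, at 54.4 and 34.4 CPM in male WT, at 38.9 and 41.8 CPM in female KO and at 45.1 and 31.8 CPM in female WT, with overlap in each sex. Other genes, mainly the antisense Arf4, cover 7.62% of its exonic bases. Pde6h ranged between 0 and 2.36 CPM.

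Summed over their transcripts, the phosphodiesterases exceeded the cyclases in every library. The 10 cyclases together had a level of 45.4 ± 5.15 TPM in the 4 KO libraries and 41.3 ± 8.89 TPM in the 4 WT libraries (SD, n = 4 each). The 21 catalytic phosphodiesterases together had 85.5 ± 16.8 TPM in KO and 77.7 ± 13.0 TPM in WT (SD, n = 4 each). The ratio of the second sum to the first was 1.92 ± 0.50 in KO and 1.95 ± 0.50 in WT (SD, n = 4 each), and it ran between 1.31 and 2.48 over the 8 libraries. These are sums of transcripts and not of enzyme activity. Dual-specificity enzymes took 70.8% to 83.5% of the phosphodiesterase sum, and the Pde1 genes with Pde2a took 61.2% to 71.3% of it.

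In females the phosphodiesterase sum was 77.2 and 88.8 TPM in the KO libraries and 67.9 and 65.0 TPM in the WT libraries, without overlap. In males it was 68.6 and 107 TPM in KO and 89.8 and 88.0 TPM in WT, so the KO libraries lay on either side of the WT libraries. The share of Adcy1 in the cyclase sum was 38.4% and 39.2% in female KO, against 31.1% and 25.8% in female WT. In males that share overlapped, at 28.5% and 25.7% in KO and 35.7% and 27.8% in WT. No test was made of these sums.

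**Figure D2:**
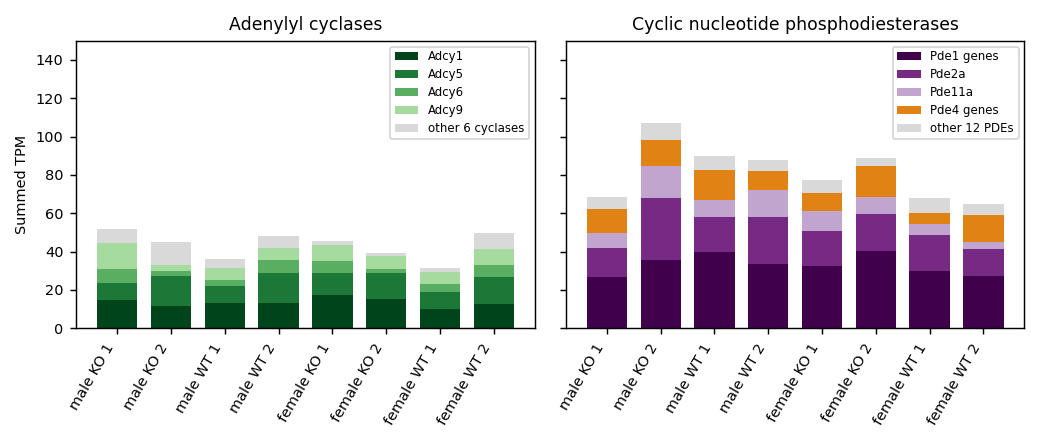
Summed level in TPM per library of the 10 adenylyl cyclases (left) and the 21 cyclic nucleotide phosphodiesterases (right), stacked by gene or gene group, with KO left of WT in each sex. The phosphodiesterase bars end between 65.0 and 107 TPM and the cyclase bars between 31.5 and 51.7 TPM, and the Pde1 genes and Pde2a make up most of the phosphodiesterase bars.

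Promoter windows from RefSeq (GRCm38.p6, 250 bases before to 50 after a transcript start) were matched by symbol for 27 of the 36 genes, and 4 are shown. Factors of the class of Bhlha9 bind E-boxes, so CANNTG was searched on both strands. Adcy1 is shown as the cyclase with the highest level (chr11:7063183-7063482, plus strand). Pde1c is shown as the catalytic gene that stood higher in KO without overlap in each sex (chr6:56369585-56369884, minus strand, the furthest upstream of 3 windows and inside the Ensembl gene). Adcy2 (chr13:68999492-68999791, minus strand) and Adcy3 are shown for their opposite fold changes in males and females. The Adcy3 window (chr12:4133147-4133446, plus strand) is the furthest upstream of 2 windows and lies inside the Ensembl gene. Each window reads 5′ to 3′ on the strand of its gene, and capitals mark an E-box.
Adcy1: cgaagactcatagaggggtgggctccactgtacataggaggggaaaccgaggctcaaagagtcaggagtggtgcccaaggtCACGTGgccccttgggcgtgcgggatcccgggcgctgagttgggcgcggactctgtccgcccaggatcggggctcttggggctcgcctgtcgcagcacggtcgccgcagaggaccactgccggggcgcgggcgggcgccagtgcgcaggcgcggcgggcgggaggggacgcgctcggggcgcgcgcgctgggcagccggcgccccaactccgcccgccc
Pde1c: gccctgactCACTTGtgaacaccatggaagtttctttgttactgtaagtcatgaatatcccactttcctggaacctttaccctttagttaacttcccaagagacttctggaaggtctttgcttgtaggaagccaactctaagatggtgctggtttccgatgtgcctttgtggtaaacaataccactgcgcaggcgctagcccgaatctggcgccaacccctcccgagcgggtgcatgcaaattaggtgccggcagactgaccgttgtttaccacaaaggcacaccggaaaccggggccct
Adcy2: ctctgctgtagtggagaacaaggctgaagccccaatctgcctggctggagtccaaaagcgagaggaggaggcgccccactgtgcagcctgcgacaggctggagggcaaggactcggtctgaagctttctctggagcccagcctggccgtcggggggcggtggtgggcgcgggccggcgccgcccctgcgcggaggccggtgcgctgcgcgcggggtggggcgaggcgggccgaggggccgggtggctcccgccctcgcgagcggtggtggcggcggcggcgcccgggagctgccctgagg
Adcy3: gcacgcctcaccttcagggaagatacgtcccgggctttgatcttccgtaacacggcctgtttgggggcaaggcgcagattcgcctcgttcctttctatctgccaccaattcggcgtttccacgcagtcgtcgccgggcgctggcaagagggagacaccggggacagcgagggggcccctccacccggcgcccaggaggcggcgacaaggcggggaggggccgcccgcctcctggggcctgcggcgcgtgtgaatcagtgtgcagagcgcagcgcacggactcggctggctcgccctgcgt
Adcy1 and Pde1c held 1 match each in these windows, CACGTG and CACTTG, and the letters CANNTG were not in the windows of Adcy2 and Adcy3. Over all windows of a gene, 22 of the 27 genes held an E-box (81.5%), against 74.99% of all genes with a window. The particular E-box CAGCTG was in 9 of 27 (33.3%), against 18.3% of all genes. The cAMP response element TGACGTCA was in 0 of 27, against 2.03% of all genes, and its core TGACG was in 9 of 27 (33.3%), against 23.1%. These shares by gene depend on the number of windows a gene has. Counted by window, an E-box was in 78.85% of the 52 windows of these genes, against 72.3% of all windows. CAGCTG was in 19.2%, against 16.3%, and TGACG in 17.3%, against 20.8%. These matches describe the letters of the windows and show no binding.

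For the comparison of KO with WT, 29 of the 36 genes passed the low-count filter of edgeR among 22013 genes. Pde3a, Pde5a, Pde6a, Pde6c, Pde9a, Adcy4 and Adcy10 did not. By edgeR's quasi-likelihood test with Benjamini-Hochberg adjustment over all 22013 genes at 0.05, 0 of the 29 passed in males, in females, with both sexes combined or for the difference between the sexes. Over all genes 0.00454% passed in males, in females and with both sexes combined, which was Bhlha9 itself, and 0% for the difference. At an unadjusted edgeR p below 0.05 there were 2 of the 29 in males (Pde3b and Pde6g), against 3.5% of all genes. There were 0 in females, against 3.81% of all genes, 1 with both sexes combined (Pde7a), against 3.56%, and 3 for the difference (Adcy2, Adcy3 and Pde3b), against 4.73%. The Wald test of DESeq2 passed 1 of the 29, Pde3b in males, where it passed 1.15% of all genes. It passed 0 of the 29 in females, with both sexes combined and for the difference, where it passed 1.34%, 0.709% and 1.64% of all genes. With 2 libraries per group and a biological coefficient of variation of 76.6%, a p above the threshold does not show that levels were equal.

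Differences in males were scattered over the classes, and the genes with the largest fold changes were low ones. In 7 of the 29 tested genes the male KO values were both above the male WT values (Pde1c, Pde4a, Pde3b, Adcy2, Adcy3, Pde8b and Pde7b, against 14.5% of all genes), and in 4 they were both below (Pde6d, Pde7a, Adcy8 and Pde6g, against 14.5%). Together that is 37.9% of the 29, against 29.1% of all genes. The median log2 fold change of the 29 was 0.13, against 0.02 over all genes, and 21 of the 29 were above 0, against 51.9% of all genes.

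Pde3b (ENSMUSG00000030671) lies on chromosome 7 of GRCm38 between 114415281 and 114539251, on the plus strand. Its level was 5.84 and 10.6 CPM in the male KO libraries and 1.68 and 1.30 CPM in the male WT libraries. In females it was 5.44 and 5.28 CPM in KO and 6.19 and 3.20 CPM in WT. The male WT libraries were thus the low ones, and the other 6 libraries lay at or above 3.20 CPM. In males the log2 fold change of KO over WT was 2.46 (SE 0.58), 5.51-fold higher in KO (edgeR adjusted p = 1). DESeq2 gave the same log2 fold change of 2.46 in males with an adjusted p = 0.00388. Without male KO replicate 2, which holds the highest value, the edgeR log2 fold change was 1.95. The authors' deposited table of genes past their threshold in males lists Pde3b among 150 genes, with a log2 fold change of KO over WT of 1.34, a standard error of 0.371 and an adjusted p of 0.0389. None of the 36 genes is among the 13 of the authors' deposited table for females. In females the edgeR log2 fold change of Pde3b was 0.19 (SE 0.55, adjusted p = 1).

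Adcy2 stood at 8.42 and 13.8 CPM in male KO, against 1.48 and 3.13 CPM in male WT, without overlap. The log2 fold change in males was 2.27 (SE 1.10, edgeR adjusted p = 1). Adcy3 stood at 6.97 and 2.62 CPM in male KO and at 1.51 and 1.116 CPM in male WT, again without overlap. Its log2 fold change in males was 1.87 (SE 0.91, edgeR adjusted p = 1), and 0.998 without male KO replicate 1. The calcium-stimulated Adcy8 went the other way, with levels of 0.971 and 7.51 CPM in male KO and of 10.3 and 10.8 CPM in male WT. Its log2 fold change in males was -1.31 (SE 0.92, edgeR adjusted p = 1), and -0.49 without male KO replicate 1. In females Adcy8 was low in both genotypes, at 3.80 and 2.11 CPM in KO and 2.89 and 1.6 CPM in WT, with overlap.

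Pde6g, named here after its values were seen, had 0 counts in both male KO libraries and 1.05 and 0.252 CPM in the male WT libraries (edgeR adjusted p = 1). In females it stood at 1.90 and 1.52 CPM in KO and at 0 and 2.44 CPM in WT, so its presence varied between replicates as well. A count of 0 allowed up to 0.0531 and 0.0456 CPM in those male KO libraries.

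**Figure D3:**
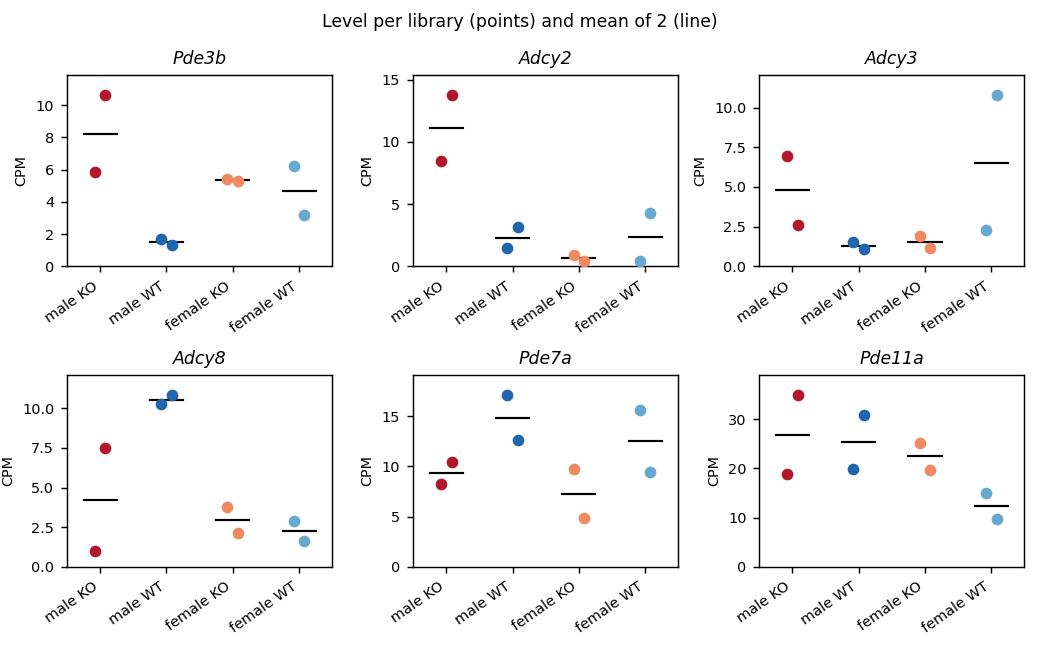
Level in CPM (vertical, from 0) of Pde3b, Adcy2, Adcy3, Adcy8, Pde7a and Pde11a in each library (points) with the mean of 2 (line), in male KO, male WT, female KO and female WT from left to right. Male WT libraries are the low ones for Pde3b, 1 female WT library at 10.8 CPM stands above the rest for Adcy3, and Adcy8 is highest in male WT.

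In females the genes that stood higher in KO were among those with the higher levels, and most of those that stood lower were scarce. In 5 of the 29 tested genes the female KO values were both above the female WT values (Pde4dip, Pde1c, Adcy1, Pde11a and Pde4d, against 14.2% of all genes), and in 4 they were both below (Pde6d, Adcy3, Adcy7 and Pde4c, against 15.1%). Together that is 31.0% of the 29, against 29.3% of all genes. The median log2 fold change of the 29 was 0.14, against 0 over all genes, and 19 of the 29 were above 0, against 49% of all genes.

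Adcy1 (ENSMUSG00000020431) lies on chromosome 11 between 7063489 and 7178506 on the plus strand, 69.49 Mb from Bhlha9. Pde6g is the other of the 36 genes on this chromosome, 43.77 Mb from Bhlha9. Adcy1 stood at 101 and 83.8 CPM in female KO, against 58.4 and 74.5 CPM in female WT, without overlap. Its log2 fold change in females was 0.48 (SE 0.24, edgeR adjusted p = 1), and 0.31 without female WT replicate 1. In males Adcy1 overlapped, at 84.4 and 59.0 CPM in KO and 68.8 and 69.4 CPM in WT, with a log2 fold change of 0.05 (SE 0.24, edgeR adjusted p = 1). Pde11a showed a like order, at 25.1 and 19.7 CPM in female KO and at 14.96 and 9.74 CPM in female WT. Its log2 fold change in females was 0.86 (SE 0.42, edgeR adjusted p = 1). In males Pde11a overlapped, at 18.9 and 34.9 CPM in KO and 19.8 and 30.9 CPM in WT.

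Pde1c and Pde6d kept their order in each sex. Pde1c stood at 152 and 145 CPM in male KO and at 127.5 and 144 CPM in male WT, and at 201 and 136.5 CPM in female KO and 109.8 and 133.5 CPM in female WT. It was the only tested gene of the 29 that was higher in KO without overlap in each sex, where 1.92% of all genes were. The nearest libraries were close together in each sex, and the log2 fold change was 0.13 (SE 0.22) in males and 0.47 (SE 0.22) in females, with an edgeR adjusted p = 1 in each. It was 0.04 in males without male WT replicate 1 and 0.17 in females without female KO replicate 1. Pde6d was the only one of the 29 that was lower in KO without overlap in each sex, where 1.99% of all genes were. Its log2 fold change was -0.18 (SE 0.14) in males and -0.17 (SE 0.14) in females, with an edgeR adjusted p = 1 in each, and -0.10 in females without female WT replicate 2.

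With both sexes combined, no tested gene of the 29 had its 4 KO libraries all above or all below its 4 WT libraries, where 0.936% and 0.895% of all genes did. Pde7a, a high-affinity cAMP phosphodiesterase, had the lowest p. It stood at 8.22 and 10.4 CPM in male KO, at 17.1 and 12.6 CPM in male WT, at 9.73 and 4.82 CPM in female KO and at 15.7 and 9.39 CPM in female WT. The male libraries did not overlap, while female KO replicate 1 lay above female WT replicate 2. The log2 fold change over both sexes was -0.73 (SE 0.31) (edgeR adjusted p = 1).

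**Figure D4:**
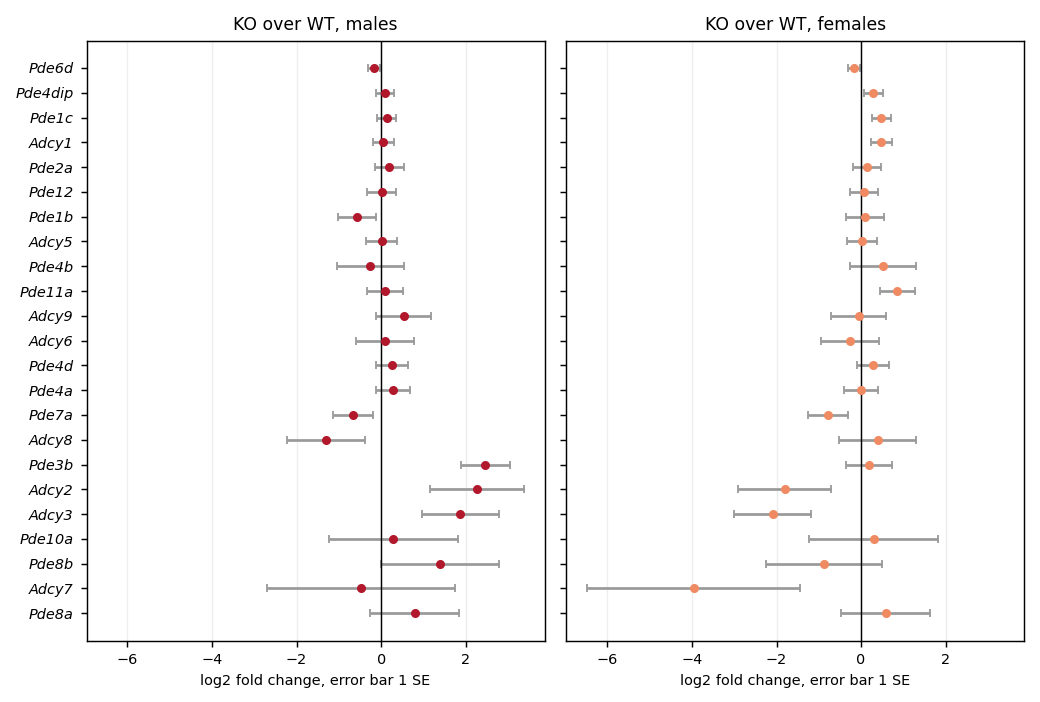
Log2 fold change of KO over WT in males (left) and females (right), with an error bar of 1 SE from the edgeR fit, for the 23 genes with a mean of at least 1 CPM, ordered from the highest mean level at the top. The genes with high levels lie close to 0, and Adcy2 and Adcy3 lie above 0 in males and below 0 in females.

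The test of the difference between the sexes was passed by none of these genes by edgeR, and Adcy3, Adcy2 and Pde3b had the smallest p. Adcy3 was the only one of the 29 whose KO libraries lay above WT without overlap in males and below WT without overlap in females, where 4.77% of all genes had opposite orders of this kind. In females Adcy3 stood at 1.92 and 1.15 CPM in KO and at 2.29 and 10.8 CPM in WT, a log2 fold change of -2.09 (SE 0.92, edgeR adjusted p = 1). That value was -0.58 without female WT replicate 2. The male fold change exceeded the female one by 3.96 on the log2 scale (SE 1.29, edgeR adjusted p = 0.98), and by 2.45 without female WT replicate 2. Adcy2 in females stood at 0.940 and 0.407 CPM in KO and at 0.424 and 4.29 CPM in WT, with overlap. The difference for Adcy2 was 4.08 (SE 1.55, edgeR adjusted p = 0.98), and 1.604 without female WT replicate 2. For Pde3b the difference was 2.27 (SE 0.79, edgeR adjusted p = 0.98), and at most 2.67 and at least 1.72 when any 1 library was left out.

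Several lists of markers of other cells moved with the male comparison, and other lists overlapped. The 9 markers of peptidergic nociceptors summed to 1517 and 2122 CPM in male KO and to 699.8 and 755.5 CPM in male WT, and 8 of the 9 had a positive log2 fold change. Calca, a peptide gene of this list, stood at 579 and 910.2 CPM in male KO and at 59.4 and 88.4 CPM in male WT. It also varied between replicates, at 713 and 5.94 CPM in female KO. Calcb, another peptide gene of the list, overlapped in males, at 313 and 374 CPM in KO and 370 and 392 CPM in WT. The 9 markers of myelinated afferents summed to 5969 and 2120 CPM in male KO and to 1506 and 1314 CPM in male WT, with 8 of 9 positive. The 9 markers of glia and Schwann cells summed to 3939 and 2744 CPM in male KO and to 2601 and 906 CPM in male WT, with 8 of 9 positive. The 9 C-LTMR markers summed to 4782 and 7055 CPM in male KO and to 7615 and 7739 CPM in male WT, with 0 of 9 positive. The 7 vascular and fibroblast markers summed to 45.3 and 8.77 CPM in male KO and to 2.93 and 2.33 CPM in male WT, with 6 of 6 tested markers positive. No marker passed the edgeR test. The 7 immune markers overlapped in males and summed to 11.8 to 25.4 CPM over the 8 libraries, with Cd3e at 0 counts in all of them. The 8 markers of nonpeptidergic nociceptors and pruriceptors overlapped as well, at 109.8 and 328.5 CPM in male KO and 113.9 and 153.2 CPM in male WT. So did the 5 red blood cell markers, at 1.91 and 1.11 CPM in male KO and 1.68 and 20.6 CPM in male WT. Pde3b, Adcy2 and Adcy3 were higher in the same male KO libraries, and the part of these other cells in their levels was not tested.

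In females the same lists did not follow one pattern, and the nonpeptidergic, immune and red blood cell lists overlapped. Peptidergic markers summed to 1566 and 507.5 CPM in female KO and to 1219 and 1995 CPM in female WT, with 1 of 9 positive. Female WT replicate 2, where Adcy2, Adcy3, Adcy7 and Pde8b had their highest female level, had 1995 CPM of these markers. The 7 vascular and fibroblast markers summed to 3.52 and 3.23 CPM in female KO and to 30.7 and 28.8 CPM in female WT, with 1 of 6 positive. The C-LTMR markers summed to 6489 and 8731 CPM in female KO and to 7662 and 6559 CPM in female WT, with 8 of 9 positive. Female KO libraries held 1535 and 1326 CPM of myelinated afferent markers, against 1225 and 1142 CPM in female WT, with 5 of 9 positive. The sum of this list was thus higher in KO without overlap in females as in males. Glial markers summed to 1207 and 2732 CPM in female KO and to 2565 and 3058 CPM in female WT, with overlap and 1 of 9 positive. Their part in the female values was not tested.

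Genes that act around the cyclases and phosphodiesterases were examined alongside. Of 18 tested cAMP effectors (such as kinase A subunits, Epac proteins and kinase A inhibitors), 8 CREB family genes and coactivators, 10 genes of cGMP synthesis and action, 11 kinase A anchoring proteins and 7 G protein alpha subunits that act on cyclases, 0 passed the edgeR test in any comparison. An unadjusted edgeR p below 0.05 was found in males for 1 of the 18 cAMP effectors and for 0 in each other list, against 3.5% of all genes. In females it was found for 0 of the 18 cAMP effectors, 1 of the 8 CREB genes, 1 of the 10 cGMP genes, 1 of the 11 anchoring proteins and 0 of the 7 alpha subunits, against 3.81% of all genes. The male effector was Prkar2b, a regulatory subunit of protein kinase A, at levels of 37.1 and 104.5 CPM in male KO and of 24.7 and 21.4 CPM in male WT. Both male KO libraries were higher, by a log2 fold change of 1.62 (SE 0.46, edgeR adjusted p = 1). In females Prkar2b was lower in KO without overlap, at 24.4 and 27.7 CPM against 44.7 and 43.0 CPM in WT, with a log2 fold change of -0.75 (SE 0.45, edgeR adjusted p = 1). The male and female fold changes of Prkar2b differed by 2.37 (SE 0.64, edgeR adjusted p = 0.98). Opposite orders without overlap in the 2 sexes were found in 4.77% of all genes.

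On the cGMP side, Prkg1, the cGMP-dependent protein kinase, stood at 52.7 and 67.7 CPM in male KO, at 45.9 and 51.7 CPM in male WT, at 73.0 and 57.9 CPM in female KO and at 49.0 and 37.2 CPM in female WT. The KO values were the higher ones in each sex, without overlap, as they were for 1.92% of all genes. Its log2 fold change over both sexes was 0.45 (SE 0.17, edgeR adjusted p = 1). Npr2, the receptor cyclase for C-type natriuretic peptide, stood at 93.4 and 136 CPM in male KO, at 104 and 166 CPM in male WT, at 122 and 154 CPM in female KO and at 128 and 133 CPM in female WT. Npr2 overlapped in each sex. Gnal, the alpha subunit Golf that stimulates cyclases, stood at 221 and 281.5 CPM in male KO, at 187 and 197.5 CPM in male WT, at 202.5 and 195 CPM in female KO and at 198 and 157 CPM in female WT. Gnal did not overlap in males, like 29.1% of all genes, and overlapped in females. Its log2 fold change in males was 0.39 (SE 0.19, edgeR adjusted p = 1). Ep300, a coactivator of CREB, stood at 36.3 and 13.7 CPM in female KO and at 10.6 and 3.96 CPM in female WT, a log2 fold change of 1.78 (SE 0.63, edgeR adjusted p = 1). Akap7, which anchors kinase A, stood at 7.56 and 9.82 CPM in female KO and at 11.6 and 24.1 CPM in female WT, a log2 fold change of -1.04 (SE 0.42, edgeR adjusted p = 1). Neither gene overlapped in females, like 29.3% of all genes, and neither p passed the adjustment.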

How the data were processed

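RNA from GFP-sorted C-LTMRs was amplified with SMART-Seq v4 and made into libraries with Nextera XT, per the labels' protocols. The deposited count file holds whole-number read counts per gene for 8 libraries, per the file headers, made by featureCounts 1.6.1 on the exons of Ensembl release 97 (GRCm38), without strand and with a read counted in every gene it overlaps. Exon lengths per gene are in the same file. The submitters' processing notes name DESeq2 1.14.1, bcl2fastq 2.17.1.14 and Subread 1.6.4, and which aligner was run is not given in the sources. The authors' deposited tables hold, per the file headers, a mean signal, log2 fold changes and their standard errors, a test score and p-values, for genes past their threshold.

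Symbols were found for 55394 of 55573 gene identifiers. Genes were kept by filterByExpr (22013), scaled by TMM (factors 0.9793 to 1.022) and tested with the quasi-likelihood test of edgeR 4.0.16 in R 4.3.3, two-sided, in a fit of 4 groups with 4 residual degrees of freedom. For KO against WT over both sexes, sex and genotype were additive terms. The SE is the log2 fold change divided by the root of its F. TPM used the counts and exon lengths of all genes. The alternatives were DESeq2 1.42.0, its size factors, no filter, a replicate block, fits within 1 sex and each library left out. The code of the test was checked on simulated data with a smaller spread than these libraries had (biological coefficient of variation 76.6%). That check does not show how the test performs at the spread found here. The replicates of each group differed by more than counting noise (chi-square per degree of freedom 105 to 287), so none was taken as the same library sequenced again. This check cannot tell separate animals from separate amplifications of the same RNA. Per-library values are given for genes averaging 5 CPM or more, and for genes of at least 1 CPM whose KO and WT libraries did not overlap in a sex or whose unadjusted p was below 0.05. Of the related lists, up to 4 genes with the smallest p and at least 5 CPM could be named. The genes, lists and tests were chosen with earlier results of these data known.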

Additional observations from a re-analysis of the deposited data

Results flagged for a closer look

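Adcy3 stood at 10.8 CPM in female WT replicate 2, far from the other 3 WT libraries, at 1.116, 1.51 and 2.29 CPM, and the female fold change rests on that library. The fold changes of Adcy3 in males and females differed by 3.96 on the log2 scale (edgeR adjusted p = 0.98), with KO higher in 2 of 2 male and lower in 2 of 2 female libraries. Pde3b stood at 10.6 CPM in male KO replicate 2, apart from the other 3 KO libraries, at 5.28, 5.44 and 5.84 CPM. Pde8b stood at 5.64 CPM in female WT replicate 2, apart from the other 3 WT libraries, at 0.529, 0.761 and 0.770 CPM. With normally distributed values, distances of this kind arise by chance in about 1 in 20 groups of samples. The rate for CPM values of low genes, with both sexes in a group, is not known and may be higher. The 23 of the 36 genes with a mean of at least 1 CPM were looked at, in KO and in WT.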

How the results depend on the processing

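Across 21 fold changes of single genes, all 269 values under the alternatives kept the direction reported, and 1 passed an adjusted p of 0.05, Pde3b in males by DESeq2 (log2 fold change 2.46, adjusted p = 0.00388). Most of the 21 belong to genes whose KO and WT libraries did not overlap in that sex. Leaving out 1 library can hardly reverse such an order, so the kept directions add little support. Under 12 edgeR alternatives Pde3b in males had an adjusted p between 0.650 and 1 and a log2 fold change between 1.95 and 2.83. DESeq2 passed 233 genes in males, 271 in females, 161 over both sexes and 343 for the difference, against 1, 1, 1 and 0 by edgeR, and 1 of the 29 genes in males. Fits on the libraries of 1 sex passed 0 genes in males and 0 in females, with fewer libraries in each. The replicate block passed 0 genes in females, against 1 without it, and left the other adjusted counts as they were. With it, the genes of the 29 at an unadjusted p below 0.05 were 1 in males, against 2, and 2 for the difference, against 3. Replicate numbers did not pair the libraries (correlations of deviations between -0.102 and 0.109). Leaving out 1 library gave 1 gene in every comparison of KO with WT and 0 for the difference, on the assumption that the lone library left varied like the other groups. The number of the 36 genes at 1 TPM or more in WT was 16 to 19 with 1 WT library left out, against 18, 22 in CPM and 15 in RPKM. The cause of the changes between tools was not tested. With 2 libraries per group and wide spread at low counts, changes of genes under 5 CPM were poorly resolved.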

Other observations

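Some of the 36 genes differed between male and female WT libraries, a comparison outside those above and chosen after the values were seen. Adcy8 stood at 10.3 and 10.8 CPM in male WT and at 2.89 and 1.6 CPM in female WT. Pde11a stood at 19.8 and 30.9 CPM in male WT and at 14.96 and 9.74 CPM in female WT. Pde3b stood at 1.68 and 1.30 CPM in male WT and at 6.19 and 3.20 CPM in female WT. Pde6d, Adcy9, Adcy3 and Pde6b were also lower in both male WT than in both female WT libraries. In all, 7 of the 29 tested genes did not overlap between the sexes in WT (24.1%), against 38.4% of all tested genes, so the share was no higher than elsewhere. No test was made of them.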
